A study of Mus musculus with 8 samples.

Results

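The nuclear genes for subunits of the mitochondrial respiratory chain and ATP synthase were followed in cultured mouse hippocampal neurons exposed to bicuculline, and none of them passed the test at any time. The members were chosen by gene symbol: Nduf genes of the A, B, C, S and V series for complex I, Sdha to Sdhd for complex II, Uqcr genes for complex III, Cox4 to Cox8 genes for complex IV and Atp5 genes for complex V. This rule gave 81 of the 19938 genes tested, of which 35 belonged to complex I, 4 to complex II, 8 to complex III, 17 to complex IV and 17 to complex V. The symbols come from the array's annotation, and several Atp5 genes now have other names. The symbol rule used no measured value. Where a gene had more than 1 transcript cluster (16 of the 81), the one with the highest mean over the 8 arrays was used. The symbol rule leaves out the subunits encoded by mitochondrial DNA and a few nuclear subunits with other names.

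The complexes of the respiratory chain sit in the inner mitochondrial membrane. Complexes I and II feed electrons from NADH and succinate to ubiquinone, complex III passes them to cytochrome c and complex IV passes them to oxygen. Complexes I, III and IV pump protons as they do so, and complex V, the ATP synthase, uses the gradient to make ATP, on which neurons depend to restore ion gradients after firing and synaptic transmission. Most subunits are encoded in the nucleus, and several cytochrome c oxidase subunits exist as paralogous isoforms with forms typical of muscle, lung or testis.

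The neurons were taken from the hippocampus of ICR mice at embryonic stage E17.5 and kept in culture for 10 days. All cultures were of this one strain and stage. They differed by the time in 50 µM bicuculline, a blocker of GABA-A receptors that raises the firing of such cultures: 0 min (no exposure, the control), 30 min, 180 min and 300 min. Each time had 2 arrays, labelled as biological replicates, and total RNA was measured on the Affymetrix Mouse Gene ST 1.0 array. Whether separate dissections or platings lie behind the replicates is not said in the labels, so each p-value reflects only how much these arrays varied, which may be technical. No vehicle-treated cultures at the later times were analysed here, so time in culture and time in bicuculline cannot be told apart. In such bulk RNA, a loss of one cell type and less RNA per cell cannot be told apart either.

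The stimulus and the cell type were checked first. Npas4, an activity-induced transcription factor, was 5.67 and 5.96 at 0 min and 9.67 and 9.72 at 30 min on the log2 scale, a rise of 3.88 ± 0.14 (SE) with a limma adjusted p of 2.67e-09. All 12 neuron markers on the list lay above the background mark on every array, and their summed log2 signal ran from 112.2 to 113.9 over the 8 arrays. The background mark was 4.46, the 95th percentile of 1027 olfactory receptor genes. Above the mark on all arrays were 7 of 8 astrocyte and 5 of 7 oligodendrocyte lineage markers. The counts were 3 of 7 for microglia, 4 of 7 for endothelial and mural and 0 of 4 for dividing-cell markers. The share over all genes was 63.3%, so these counts alone do not show which of these cells were present. The array medians lay between 4.84 and 4.88. On the second array at 300 min the subunit genes stood higher than on the first, as described below, and results at 300 min are also given without each of these arrays.

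Most subunit genes gave signal above the background mark, which does not show that each cluster measured its gene alone. 78 of the 81 lay above the background mark on all 8 arrays, against 63.3% of all genes. Cox7b2 and Cox8b lay below it on all 8 arrays, and Cox8c lay above it on 7. These isoforms are typical of other tissues such as testis and muscle, and no level can be read here from Cox7b2 and Cox8b. The median range of a subunit gene over all 8 arrays was 0.36 on the log2 scale, against 0.41 for all genes. 67 of the 81 genes ranged by less than 0.5. The smallest range was that of Atp5a1, the alpha subunit of the catalytic F1 part of ATP synthase, at 0.14. The largest was that of Uqcrb, a small structural subunit of complex III, at 0.93.

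The promoters of the subunit genes were described next. RefSeq promoter windows of assembly GRCm38.p6 ran from 250 bases before to 50 bases after the transcription start. They matched 66 of the 81 genes by gene number, in 71 windows. They were searched on both strands for the letters of motifs bound by factors long linked to nuclear mitochondrial genes: GCGCA and GCGC with any 1 base between them for nuclear respiratory factor NRF1, CCGGAAG for ETS factors such as GABP (also called NRF2), and AAGATGGCG for YY1. The NRF1 letters were in 16 of the 66 genes (24.2%) and in 5.19% of all 27025 genes with a window. The ETS letters were in 17 (25.8%, against 9.93%) and the YY1 letters in 7 (10.6%, against 1.64%). At least one of these was found in 34 of the 66 (51.5%, against 15.1% of all genes), and the other genes with a window held none of them.

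Motifs of general or activity-regulated promoters were searched in the same way. The Sp1 letters GGGCGG were in 40.9% of the subunit genes and 38.2% of all genes. The CRE letters TGACGTCA, bound by CREB, were in 6.06% and 2.03%, which is 4 subunit genes. The AP-1 letters TGAGTCA, bound by Fos and Jun, were in 9.09% and 5.95%, and the TATA letters TATAAA in 12.1% and 15.7%. The subunit windows were also richer in G and C, with a median of 57.3% against 52.7%, and in CpG, with an observed over expected ratio of 0.795 against 0.384. The part of base composition in the motif shares was not tested. A match describes the letters only, and shows neither binding nor regulation.

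**Figure D1:**
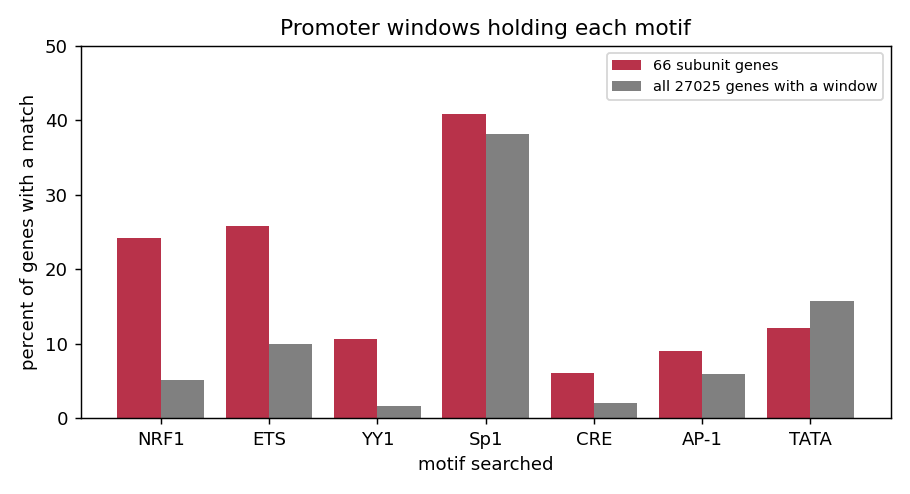
Percent of genes whose 300-base promoter window holds each motif on either strand, for the 66 subunit genes with a window (red) and all 27025 genes with a window (grey). In percentage points, the bars for NRF1 (24.2% and 5.19%), ETS (25.8% and 9.93%) and YY1 (10.6% and 1.64%) differ the most. The subunit bars are also higher for CRE (6.06% and 2.03%), AP-1 (9.09% and 5.95%) and Sp1 (40.9% and 38.2%), and lower for TATA (12.1% and 15.7%). As a ratio, the CRE bars, which rest on 4 subunit genes, differ by more than the ETS bars.

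6 subunit genes held at least 2 of the NRF1, ETS and YY1 motifs in one window: Ndufs6, Sdhd, Cox6a1, Atp5h, Atp5j and Atp5k. 4 of them are shown, one from each of complexes I, II and IV and one from complex V, to let the motifs be seen in place. Each is written 5′ to 3′ along the gene, which is the minus strand of the chromosome in all 4, in lower case with every match of these 3 motifs in capitals. The windows are chr13:73328433-73328732 for Ndufs6, chr9:50603800-50604099 for Sdhd, chr5:115348909-115349208 for Cox6a1 and chr16:84834927-84835226 for Atp5j, all in GRCm38.p6.
Ndufs6: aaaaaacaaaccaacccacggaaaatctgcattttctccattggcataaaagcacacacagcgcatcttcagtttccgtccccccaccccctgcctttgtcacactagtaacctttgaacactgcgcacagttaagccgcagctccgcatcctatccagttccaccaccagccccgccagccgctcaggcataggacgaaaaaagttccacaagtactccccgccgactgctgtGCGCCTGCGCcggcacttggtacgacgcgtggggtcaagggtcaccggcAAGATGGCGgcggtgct
Sdhd: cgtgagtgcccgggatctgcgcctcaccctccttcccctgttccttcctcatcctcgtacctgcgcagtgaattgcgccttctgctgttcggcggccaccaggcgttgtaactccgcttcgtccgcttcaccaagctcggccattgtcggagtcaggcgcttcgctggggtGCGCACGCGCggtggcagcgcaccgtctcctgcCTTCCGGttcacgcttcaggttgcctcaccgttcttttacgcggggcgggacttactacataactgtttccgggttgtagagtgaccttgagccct
Cox6a1: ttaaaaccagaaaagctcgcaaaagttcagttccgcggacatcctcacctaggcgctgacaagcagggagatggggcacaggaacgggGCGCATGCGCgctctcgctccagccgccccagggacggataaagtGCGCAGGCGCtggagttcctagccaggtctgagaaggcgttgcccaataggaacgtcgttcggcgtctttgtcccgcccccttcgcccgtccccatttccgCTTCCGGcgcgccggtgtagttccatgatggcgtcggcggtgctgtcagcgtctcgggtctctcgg
Atp5j: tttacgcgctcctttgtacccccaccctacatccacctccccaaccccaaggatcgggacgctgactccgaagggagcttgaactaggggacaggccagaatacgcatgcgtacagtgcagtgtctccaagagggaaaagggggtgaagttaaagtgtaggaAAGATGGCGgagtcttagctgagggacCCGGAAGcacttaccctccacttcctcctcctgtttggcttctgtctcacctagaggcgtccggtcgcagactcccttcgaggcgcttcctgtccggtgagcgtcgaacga
Ndufs6 encodes an accessory subunit of the electron input module of complex I, and its NRF1 match began 16 bases before the start, on the opposite strand to the gene. Its YY1 match began at the 34th base counted from the start. Sdhd, a membrane anchor of complex II, had an NRF1 match 79 bases and an ETS match 46 bases before the start. Cox6a1, the widely expressed form of a complex IV subunit, had NRF1 matches 162 bases (on both strands, since the letters there are a palindrome) and 117 bases and an ETS match 16 bases before the start. Atp5j, coupling factor 6 in the stalk of ATP synthase, had a YY1 match 88 bases and an ETS match 61 bases before the start. At 180 min against 0 min the fitted log2 changes were 0.18 ± 0.12 (SE) for Ndufs6 and 0.05 ± 0.12 for Sdhd. Those for Cox6a1 and Atp5j were -0.04 ± 0.13 and 0.11 ± 0.12. None of the 4 passed the test, and the genes were not tested against each other.

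At 30 min, when Npas4 was high, 0 of the 81 subunit genes passed an adjusted p of 0.05 in limma's test, where 0.0953% of all genes tested did. 1 subunit gene had an unadjusted p under 0.05, against 5.11% of all genes, and the smallest adjusted p among the 81 was 0.862. Fitted log2 changes against 0 min ran from -0.28 to 0.35, with a median of -0.031 over the subunit genes and 0.001 over all genes. 46 of the 81 were below 0. The arrays of the 2 times did not overlap for 13 subunit genes on the higher side and 18 on the lower, where 19.2% and 18.3% of all genes did so.

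At 180 min, 0 of the 81 genes passed, against 0.331% of all genes, and the smallest adjusted p was 0.322. 2 subunit genes had an unadjusted p under 0.05, against 12.8% of all genes. The changes ran from -0.28 to 0.31 with a median of -0.047, where the median of all genes was -0.001. 57 of the 81 were below 0. Non-overlapping arrays were seen for 8 genes on the higher side and 17 on the lower (21.1% and 22.6% of all genes). The direction of this small median was not kept under every treatment of the values: it was -0.047 as deposited, -0.017 after quantile normalization, and 0.018 once the trend of change over signal level across all genes was subtracted.

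At 300 min, 0 of the 81 genes passed, against 0.286% of all genes, with a smallest adjusted p of 0.523. 1 subunit gene had an unadjusted p under 0.05, against 8.96% of all genes. The median change was -0.003, equal to that of all genes, and 41 of the 81 were below 0. Non-overlapping arrays were seen for 9 genes on the higher side and 11 on the lower (18.8% and 19.6% of all genes). The median was 0.077 without the first array at 300 min and -0.106 without the second. The 3 comparisons share the same pair of 0 min arrays, so they are not independent of each other.

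The later steps gave the same counts. Between 30 and 180 min, 0 of the 81 passed (0.502% of all genes), 3 had an unadjusted p under 0.05 (10.5% of all genes) and the smallest adjusted p was 0.265. The arrays did not overlap for 5 genes on the higher side and 19 on the lower (18.2% and 22.4% of all genes). Between 180 and 300 min, 0 passed in the subunit genes, and the same was true of all genes (0%). There 2 subunit genes had an unadjusted p under 0.05, against 5.72% of all genes, and the arrays did not overlap for 11 genes on the higher side and 8 on the lower (16.8% and 16.4% of all genes). When the 4 late arrays (180 and 300 min) were set against the 4 early ones (0 and 30 min), 2.22% of all genes passed and 0 subunit genes did. 2 subunit genes had an unadjusted p under 0.05, against 14.3% of all genes, and the smallest adjusted p was 0.208. In limma's F test over the 4 times, 0.813% of all genes passed and 0 of the 81 did, with 0 at an unadjusted p under 0.05 (11% of all genes) and a smallest adjusted p of 0.464.

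**Figure D2:**
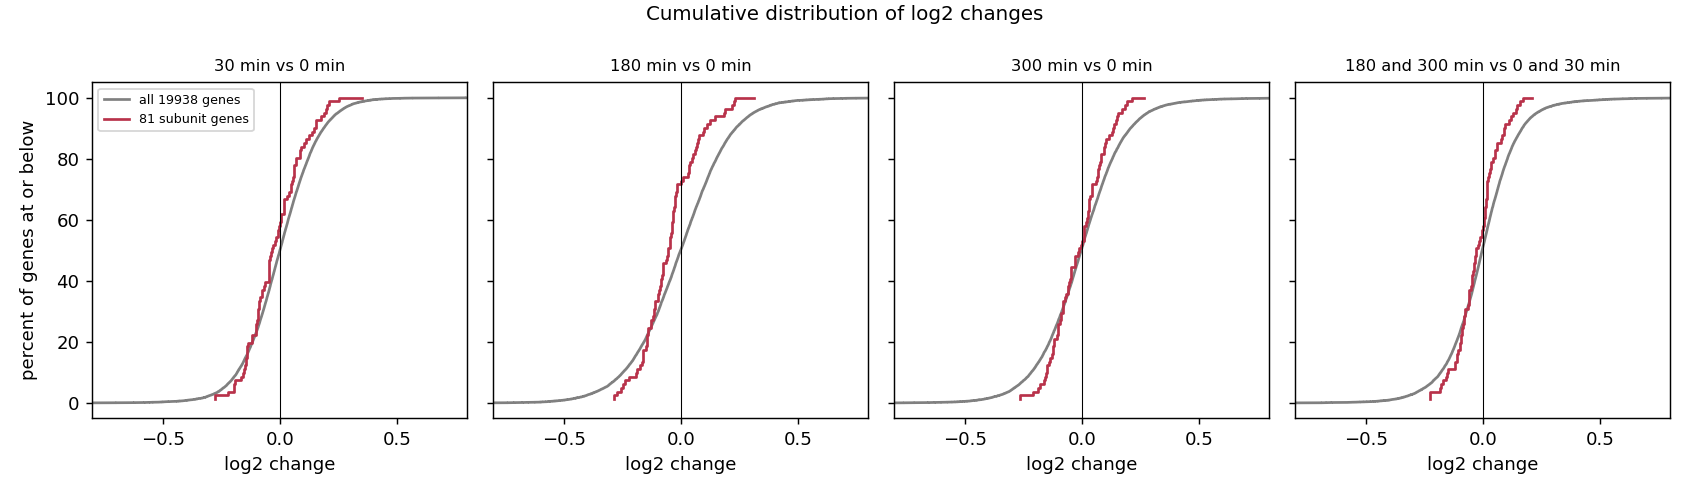
Cumulative percent of genes (vertical axis) at or below each fitted log2 change against 0 min (horizontal axis) at 30, 180 and 300 min, for the 81 subunit genes and for all 19938 genes tested. The curves of the subunit genes run close to those of all genes near 0 and lack their long ends, with medians of -0.031, -0.047 and -0.003.

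The data bound the changes that could have been missed. The median 95% confidence interval of a subunit gene reached 0.28 to either side of its fitted log2 change, and 0.2 in the comparison of late with early arrays. The intervals of all 81 genes lay within a 2-fold change (1 on the log2 scale) in each direction at every time. At 30 min 74 of them, at 180 min 70 and at 300 min 76 lay within 0.5 in each direction. The lowest bound at any time against 0 min was -0.68, for Atp5md at 30 min, and the highest was 0.70, for Uqcrb at 300 min. No subunit gene had a fitted change beyond 1.5-fold at any of the 3 times, where 0.281%, 0.958% and 0.762% of all genes did at 30, 180 and 300 min. For comparison, the smallest change that passed the test in any gene was 0.72 at 30 min, 0.59 at 180 min and 0.61 at 300 min, so changes of the size fitted for these genes were below what the design called. The spread between replicates was like that of other genes, with a median residual SD of 0.125 against 0.126.

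**Figure D3:**
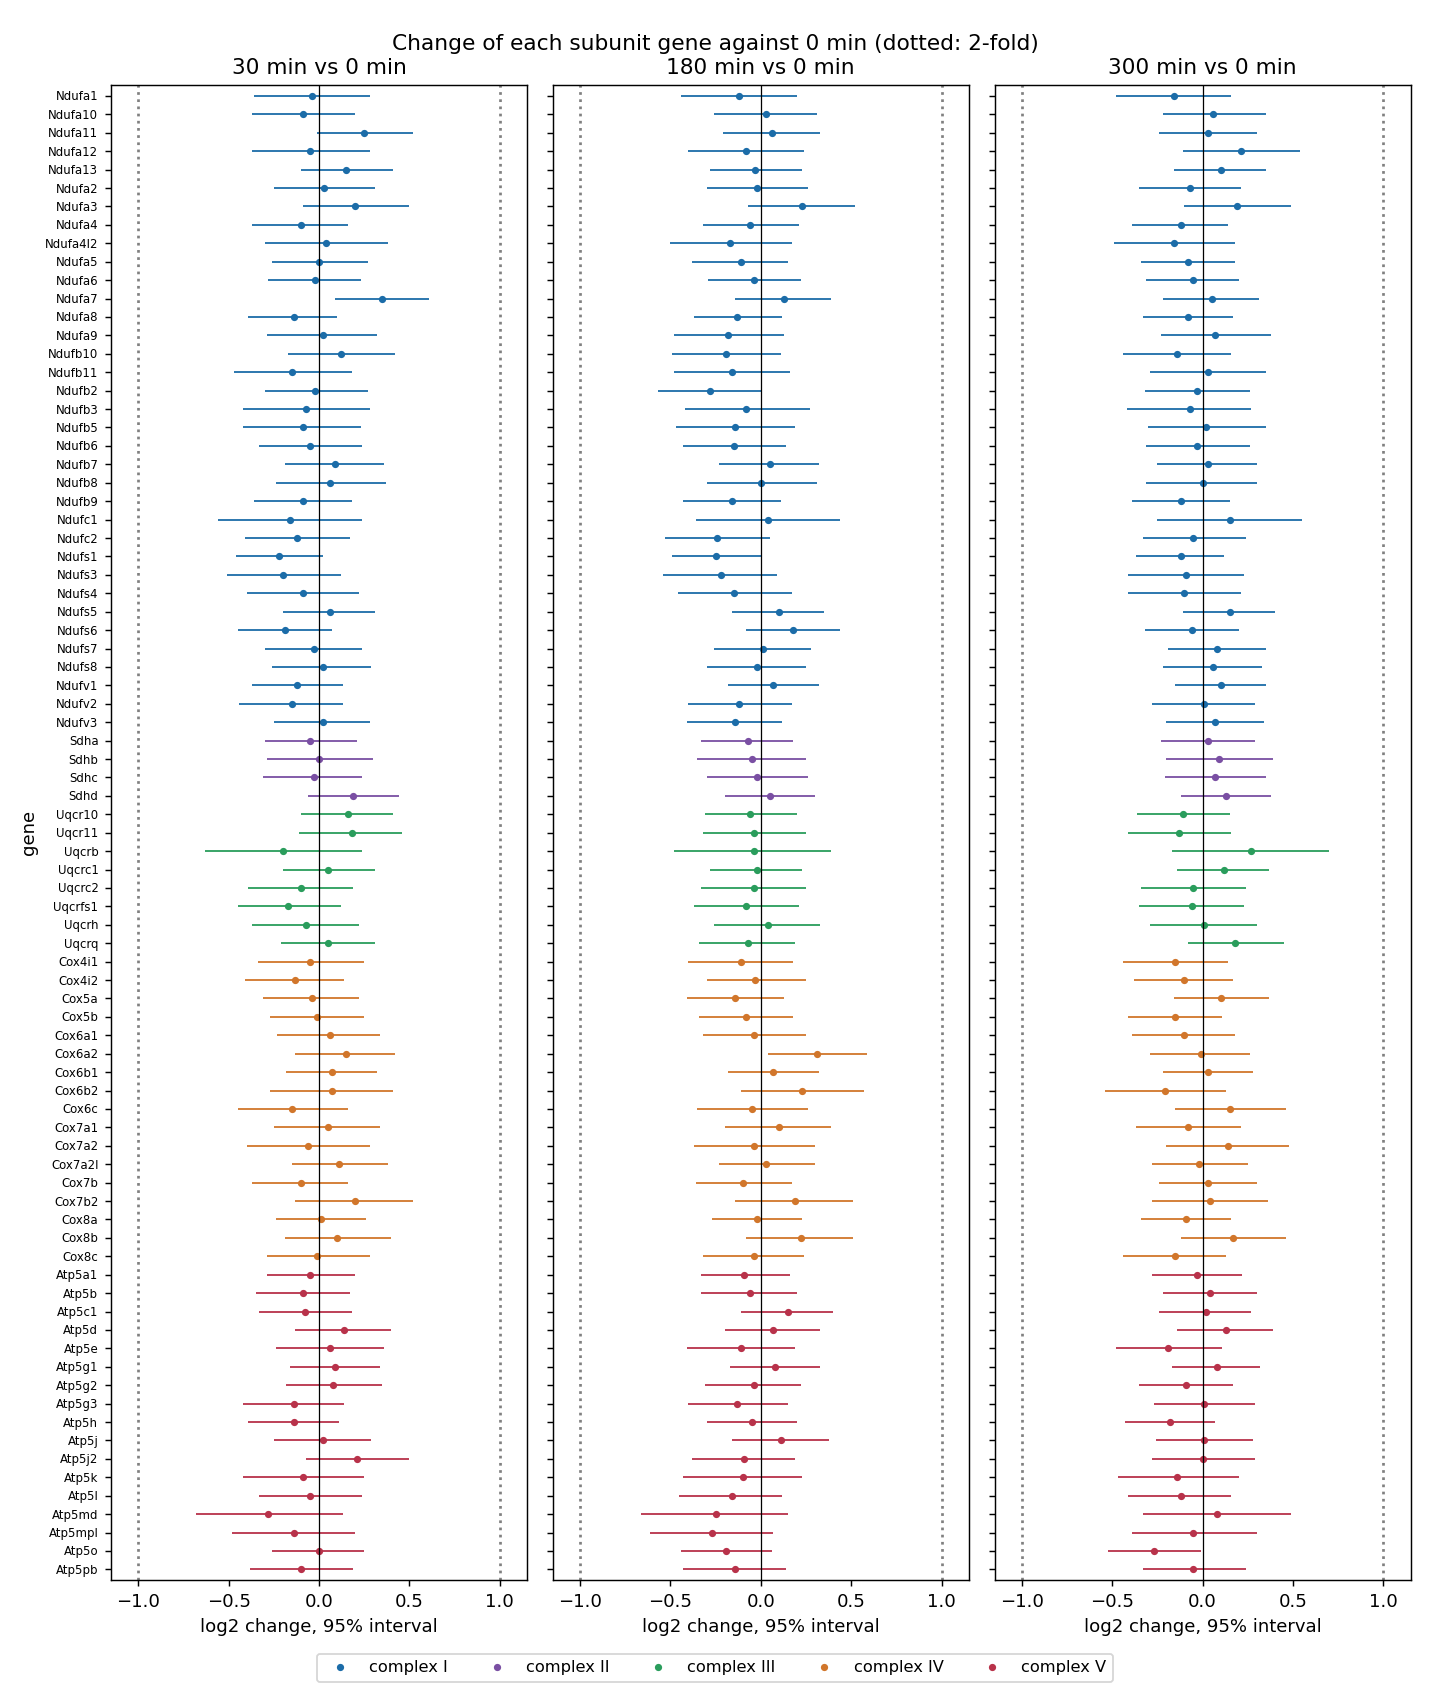
Fitted log2 change against 0 min (points) with its 95% confidence interval (lines) for each of the 81 genes at 30, 180 and 300 min, coloured by complex, with n = 2 arrays per time and dotted lines at a 2-fold change. All intervals lie between the dotted lines, and the fitted changes lie between -0.28 and 0.35.

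Complex I, the NADH dehydrogenase, has core subunits that bind its flavin and iron-sulfur clusters and many accessory subunits around them. The 35 genes had median log2 changes of -0.039, -0.078 and -0.003 at 30, 180 and 300 min, with 21, 24 and 18 of them below 0, and none passed the test at any time. The 6 core subunits measured (Ndufs1, Ndufs3, Ndufs7, Ndufs8, Ndufv1 and Ndufv2) had medians of -0.136, -0.07 and 0.033, with 5, 4 and 2 below 0.

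Ndufs1, the largest iron-sulfur core subunit, was 8.14 and 8.07 at 0 min, 7.89 and 7.88 at 30 min, 7.86 and 7.85 at 180 min and 7.96 and 7.99 at 300 min. All 6 bicuculline arrays were below both 0 min arrays, and replicates differed by at most 0.07. The fitted change was -0.25 ± 0.11 (SE) at 180 min with an adjusted p of 0.384, and -0.22 ± 0.11 at 30 min. Ndufv1, the core subunit that binds NADH, was 8.36 and 8.42 at 0 min, 8.22 and 8.31 at 30 min, 8.43 and 8.49 at 180 min and 8.54 and 8.43 at 300 min. It was the 1 subunit gene whose 4 late arrays all lay above its 4 early ones, narrowly, where 3.47% of all genes showed this. The core subunit Ndufs3 was 9.01 and 9.29 at 0 min and 8.85 and 9.01 at 180 min, a fitted change of -0.22 with a confidence interval from -0.54 to 0.09.

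Among the accessory subunits, Ndufa7 was 6.27 and 6.26 at 0 min and 6.72 and 6.52 at 30 min, and went back to 6.43 and 6.35 at 180 min and 6.24 and 6.38 at 300 min. Its fitted change at 30 min was 0.35 ± 0.12 (1.28-fold, confidence interval 0.09 to 0.61) with an adjusted p of 0.862, the largest fitted difference above 0 of any subunit gene against 0 min. Both 30 min arrays were above all others, and the difference did not pass the test over all genes. Ndufa11, a subunit of the membrane arm, had 7.85 and 7.83 at 0 min and 8.18 and 8.0 at 30 min, a fitted change of 0.25 ± 0.13. Its second transcript cluster gave 0.06 for the same comparison.

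Ndufs6 went from 7.06 and 7.16 at 0 min to 6.93 and 6.91 at 30 min, 7.31 and 7.27 at 180 min and 6.94 and 7.16 at 300 min. Both 180 min arrays were the highest and both 30 min arrays the lowest. Its difference of 0.37 ± 0.12 between 180 and 30 min had an adjusted p of 0.265, the smallest among the subunit genes in that comparison. Ndufb2 was 5.88 and 5.76 at 0 min and 5.46 and 5.61 at 180 min, a fitted change of -0.28 ± 0.13, and stood at 5.67 and 5.91 at 300 min, where its arrays overlapped those at 0 min. Ndufb10 was 5.70 and 6.04 at 0 min, 5.92 and 6.07 at 30 min, 5.59 and 5.77 at 180 min and 5.69 and 5.77 at 300 min. The late arrays overlapped the early ones because of the first array at 0 min, and the late minus early difference was -0.23 ± 0.10 with an adjusted p of 0.304.

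Other accessory subunits had wider replicates. Ndufa3 lay at 7.78 and 7.84 at 0 min and 8.19 and 7.85 at 30 min, 7.96 and 8.13 at 180 min and 7.92 and 8.09 at 300 min, so that all 6 exposed arrays were above both controls. How many of all genes showed this was not counted, and 19.2%, 21.1% and 18.8% lay wholly above the controls in the single comparisons. The fitted differences for Ndufa3 were 0.20, 0.23 and 0.19. Ndufa12 was 7.01 and 7.38 at 0 min and 7.23 and 7.59 at 300 min, and its change of 0.21 ± 0.15 was within the spread of its replicates. Ndufa4 is counted here by its symbol, though its protein is known as a subunit of complex IV. It ranged by 0.25, from 9.76 to 10.02. Its hypoxia-inducible paralogue Ndufa4l2 lay near the background mark, between 4.49 and 5.02.

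Complex II, succinate dehydrogenase, is shared with the TCA cycle, and its 4 genes did not pass at any time. Sdha, the flavoprotein subunit, was 8.70 and 8.89 at 0 min, 8.77 and 8.73 at 30 min, 8.68 and 8.77 at 180 min and 8.80 and 8.85 at 300 min, and its arrays at each later time overlapped those at 0 min. Sdhb, the iron-sulfur subunit, ran from 7.51 to 7.93, and Sdhc, a membrane anchor, from 9.03 to 9.34. Sdhd was 7.73 and 7.82 at 0 min and 8.02 and 7.91 at 30 min, 7.89 and 7.76 at 180 min and 7.90 and 7.91 at 300 min. Its fitted change of 0.19 ± 0.12 at 30 min (confidence interval -0.06 to 0.44) was the largest in the complex. All 4 genes had fitted values above 0 at 300 min, from 0.03 to 0.13, and all 4 were also higher on the second than on the first array at that time.

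Complex III, the cytochrome bc1 complex, had medians of -0.012, -0.04 and -0.021 over its 8 genes. At 180 min 7 of the 8 were below 0, but their changes lay between -0.08 and 0.04. Uqcrc1, a large matrix-facing core protein, lay between 9.01 and 9.25 on all 8 arrays. Uqcrfs1, the Rieske iron-sulfur protein, was 7.0 and 7.10 at 0 min and 7.04 and 6.73 at 30 min, a fitted change of -0.17 with overlapping arrays. Uqcrq had 6.51 and 6.57 at 0 min and 6.80 and 6.64 at 300 min, a fitted change of 0.18 (confidence interval -0.08 to 0.45).

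Uqcrb was 8.64 and 8.90 at 0 min, 8.50 and 8.66 at 30 min, 8.55 and 8.91 at 180 min and 8.65 and 9.43 at 300 min. The second array at 300 min was higher than all others, and the first lay within the range of the controls. The fitted change at 300 min was 0.27 ± 0.20, the largest SE among the subunit genes. The 2 other transcript clusters named for Uqcrb gave 0.26 and 0.34. Uqcr11 was uncertain, since its brightest cluster had a fitted change of -0.13 at 300 min and its second cluster one of 0.18.

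Complex IV, cytochrome c oxidase, had 17 genes with medians of 0.007, -0.027 and -0.018. Their ranges over the 8 arrays ran from 0.17 to 0.70. Cox4i1, a widely expressed subunit, was 9.08 and 9.14 at 0 min, 9.11 and 9.02 at 30 min, 8.96 and 9.04 at 180 min and 8.76 and 9.15 at 300 min, with overlapping arrays at 30 and 300 min. Among other widely expressed subunits, Cox6b1 ranged by 0.17 and Cox8a by 0.19 over the 8 arrays, while Cox5a ranged by 0.41, Cox6c by 0.53 and Cox7a2 by 0.54. Cox6a1 lay between 8.81 and 9.15, and its arrays overlapped those at 0 min at 30 and 180 min, while both 300 min arrays (8.86 and 8.87) lay just below the controls (9.03 and 8.91).

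Isoforms of this family known from other tissues ranged by 0.34 (Cox4i2 and Cox8c) to 0.70 (Cox6b2). Cox6a2, the heart and muscle form that is also known from some neurons, was 5.98 and 5.98 at 0 min, 6.07 and 6.19 at 30 min, 6.17 and 6.43 at 180 min and 5.90 and 6.04 at 300 min. All 4 arrays at 30 and 180 min were above the controls, and the 300 min arrays lay on either side of them. The difference of 0.31 ± 0.13 at 180 min (confidence interval 0.04 to 0.59) had an adjusted p of 0.322, and that of -0.33 ± 0.13 from 180 to 300 min an adjusted p of 0.852. Cox6b2, the testis form, was 6.24 and 6.42 at 0 min, 6.55 and 6.25 at 30 min, 6.53 and 6.60 at 180 min and 6.35 and 5.89 at 300 min. Its value on the second array at 300 min was the lowest of the 8, and its difference of -0.44 ± 0.16 from 180 to 300 min had an adjusted p of 0.852. Cox4i2, the lung form, lay between 5.07 and 5.41 and Cox7a1, the heart and muscle form, between 4.93 and 5.29.

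Taking the 8 tissue-restricted isoforms as a group (Cox4i2, Cox6a2, Cox6b2, Cox7a1, Cox7b2, Cox8b, Cox8c and Ndufa4l2), the medians against 0 min were 0.058, 0.141 and -0.09 at 30, 180 and 300 min. None passed the test. Cox7b2 and Cox8b lay below the background mark on all 8 arrays and Cox8c above it on 7, close to it, with a mean of 4.61.

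Complex V, the ATP synthase, had 17 genes with medians of -0.046, -0.092 and -0.029, and 11, 13 and 9 of them below 0. The 5 genes of the catalytic F1 part (Atp5a1, Atp5b, Atp5c1, Atp5d and Atp5e) had medians of -0.046, -0.065 and 0.016. Atp5a1 was 10.77 and 10.76 at 0 min, 10.68 and 10.76 at 30 min, 10.63 and 10.72 at 180 min and 10.72 and 10.74 at 300 min. Atp5b, the catalytic beta subunit, was 10.31 and 10.35 at 0 min and lay between 10.17 and 10.44 at the later times. Atp5c1, the rotating gamma subunit, was 10.53 and 10.48 at 0 min and 10.59 and 10.71 at 180 min, a fitted change of 0.15 with a confidence interval from -0.11 to 0.40. The 3 paralogous genes for the c subunit of the proton-driven ring, Atp5g1, Atp5g2 and Atp5g3, had changes between -0.14 and 0.09 at all 3 times.

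Atp5o, the oligomycin sensitivity-conferring protein that ties F1 to the peripheral stalk, was 7.98 and 7.90 at 0 min, 7.88 and 7.99 at 30 min, 7.73 and 7.77 at 180 min and 7.63 and 7.72 at 300 min. It was the 1 subunit gene whose 4 late arrays all lay below its 4 early ones, where 5.36% of all genes showed this. The late minus early difference was -0.22 ± 0.08, or 0.856-fold, with an adjusted p of 0.208. At 300 min the change was -0.27 ± 0.12 (confidence interval -0.52 to -0.01) with an adjusted p of 0.523. Atp5h, another stalk subunit, was 9.24 and 9.32 at 0 min and 9.11 and 9.09 at 300 min, a fitted change of -0.18.

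Among the small membrane subunits of the ATP synthase, Atp5md, Atp5mpl and Atp5k had the largest residual SDs of the complex, at 0.287, 0.212 and 0.201. Atp5md was 8.83 and 9.08 at 0 min, 8.71 and 8.65 at 30 min, 8.49 and 8.92 at 180 min and 8.72 and 9.36 at 300 min, a fitted change of -0.28 ± 0.19 at 30 min. Its 2 other transcript clusters gave -0.29 and -0.27. Atp5mpl was 8.96 and 8.96 at 0 min, 8.72 and 8.65 at 180 min and 8.61 and 9.21 at 300 min. At 180 min both arrays lay below the controls, with a change of -0.27 ± 0.16, while at 300 min the pair lay on either side of them. Atp5j2 was 9.11 and 9.19 at 0 min and 9.48 and 9.24 at 30 min, a fitted change of 0.21 with a confidence interval from -0.07 to 0.50. Atp5l had 6 transcript clusters, which can take signal from near-identical copies, and its fitted change at 180 min was -0.16 in the brightest and between -0.22 and -0.15 in the others.

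**Figure D4:**
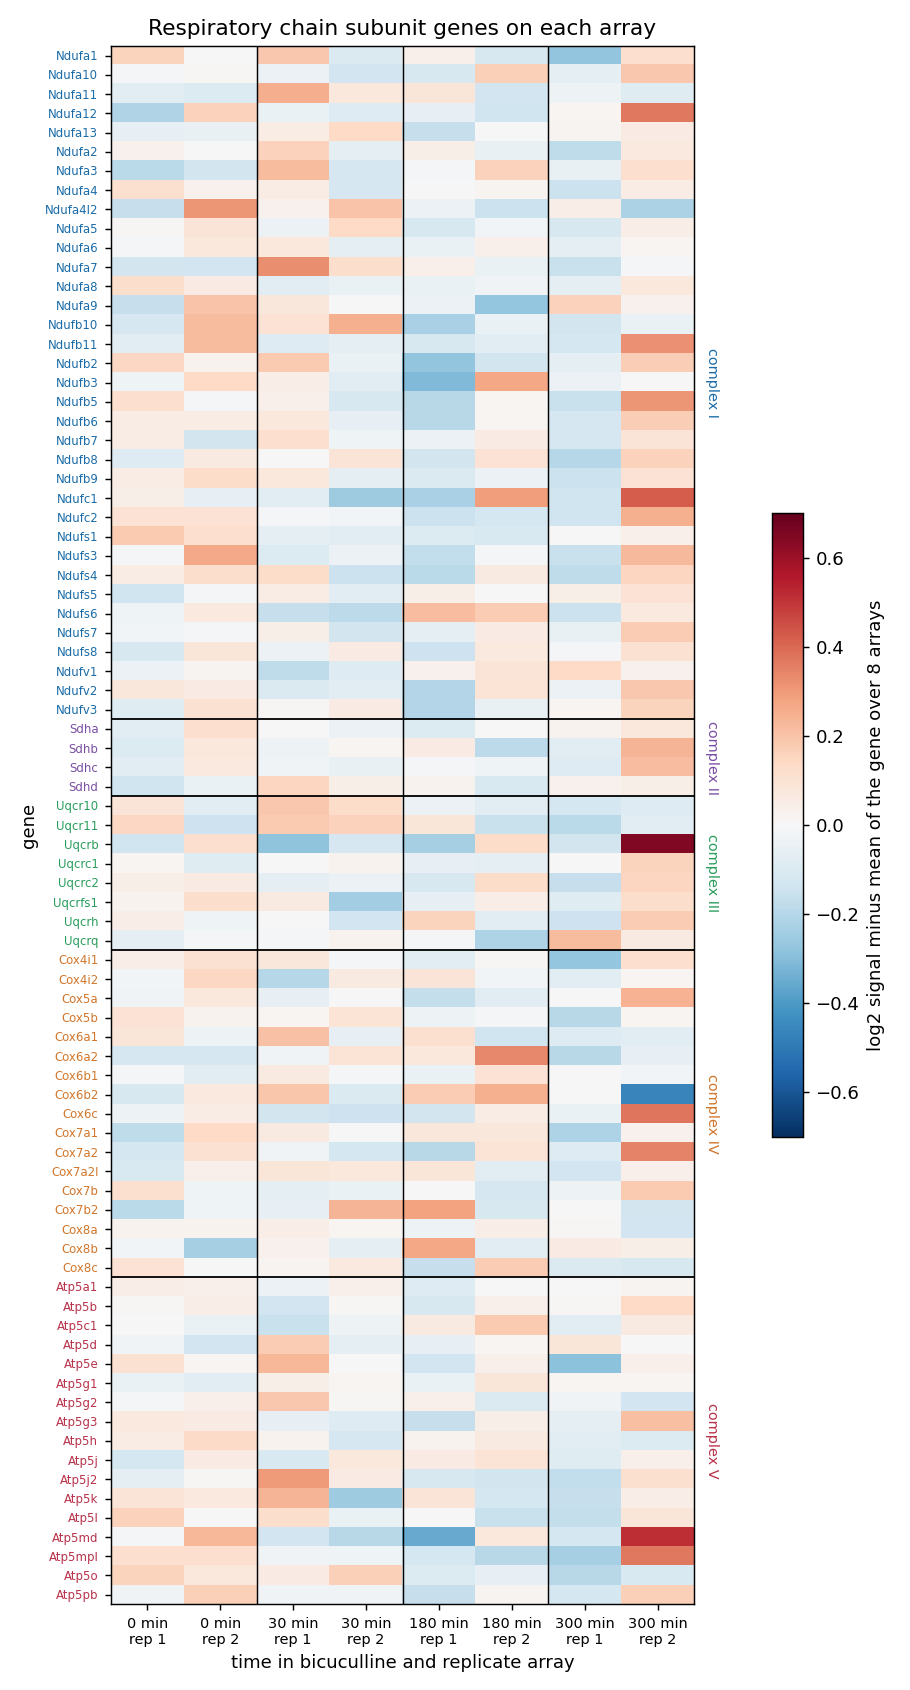
Log2 signal of each of the 81 genes on each of the 8 arrays minus the mean of the gene over the arrays, with genes in rows grouped by complex and arrays in columns by time and replicate. Rows vary by little (median range 0.36), and the first and second array at 300 min differ by a median of 0.175 over the genes.

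Among the pairs of replicate arrays, the subunit genes differed most between the 2 arrays at 300 min. On the second array 67 of the 81 genes were higher than on the first, with a median difference of 0.175 on the log2 scale, where 50.1% of all genes were higher and the median was 0.0. This held for 31 of 35 genes of complex I, 4 of 4 of complex II, 7 of 8 of complex III, 11 of 17 of complex IV and 14 of 17 of complex V. The largest differences were those of Uqcrb (0.77), Atp5md (0.64), Atp5mpl (0.60), Ndufc1 (0.57) and Ndufb5 (0.46). At the other end, Cox6b2 was lower by 0.46 and Ndufa4l2 by 0.28 on the second array. At the other times the median difference was 0.038 at 0 min, -0.03 at 30 min and 0.067 at 180 min, with 47, 29 and 52 of the 81 genes higher in the second replicate. No fitted median change against 0 min was as large as 0.175. The fitted changes compare means of 2 arrays, which vary less than single arrays, so the sizes are not directly comparable.

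Other mitochondrial lists were compared between the same pair of arrays. 34 of 41 assembly factors were higher on the second array at 300 min (median 0.126), as were 13 of 14 genes of the electron carriers (0.173), 9 of 13 TCA cycle genes (0.181) and 7 of 9 outer membrane and carrier proteins (0.128), against 7 of 13 regulators of mitochondrial gene expression (0.032). Some of these lists had shifts as large between replicates of other times: 31 of 41 assembly factors were higher on the second array at 0 min (0.141), and 9 of 9 outer membrane and carrier proteins at 180 min (0.156). Neuron markers were higher for 5 of 12 genes (median -0.028). All 8 astrocyte markers were lower on the second array (median -0.166), and their summed log2 signal was 51.6 and 49.6 on the 300 min arrays. At 0 min, where the astrocyte markers differed the other way (6 of 8 higher on the second array, median 0.304), the subunit genes had a median difference of 0.038. At 180 min 2 of 8 astrocyte markers were higher on the second array (median -0.169), and the subunit median was 0.067. At 30 min it was also 2 of 8 astrocyte markers (median -0.09), with a subunit median of -0.03. The part of cell makeup, RNA quality or labelling in this difference was not tested.

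**Figure D5:**
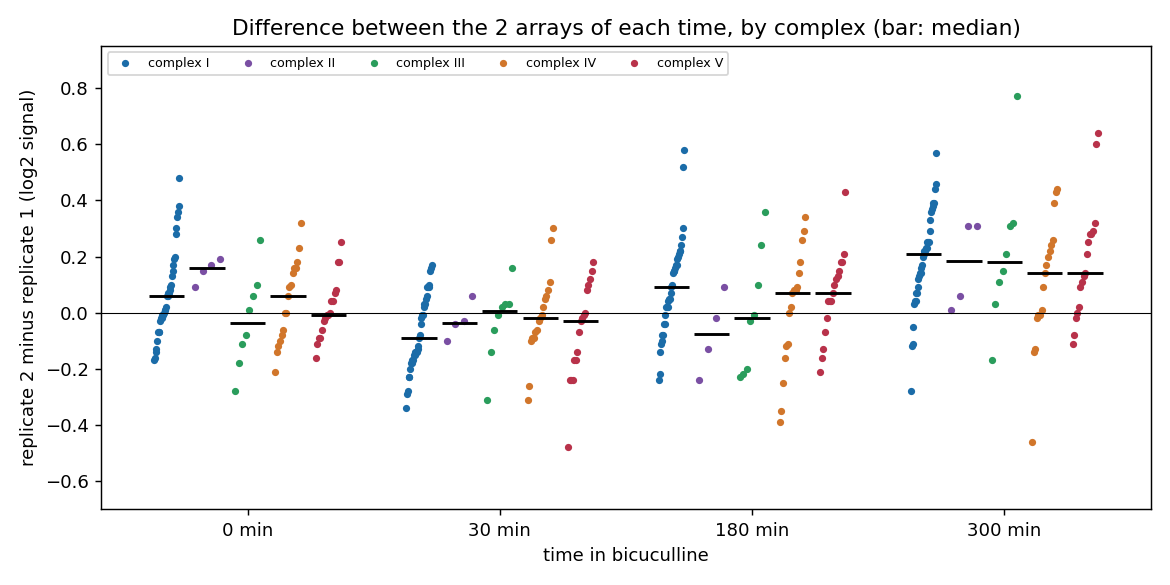
Difference in log2 signal between the second and the first replicate array at each time (vertical axis) for the 81 genes, coloured by complex, with a bar at the median. At 300 min the points lie mostly above 0, with a median of 0.175, and at 0, 30 and 180 min the medians are 0.038, -0.03 and 0.067.

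The other genes of the pathway were counted in lists fixed by name. None of them passed a limma adjusted p of 0.05 in any comparison. First were 3 measured genes outside the symbol rule (the subunit genes Ndufab1 and Cyc1, and Atpif1, for an inhibitor of ATP synthase) and 41 assembly factors. Next came 14 genes of cytochrome c, ubiquinone synthesis and electron transfer flavoprotein, and 13 TCA cycle genes. Last were 13 regulators of mitochondrial gene expression and 9 outer membrane and carrier proteins. At 180 min the numbers with an unadjusted p under 0.05 in limma's test were 0, 4, 1, 0, 4 and 0 in this order, where 12.8% of all genes had one. The median changes at 180 min were -0.116, -0.075, -0.063, -0.026, -0.16 and -0.108.

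The genes of these lists named next were chosen after their values were seen. Pdss2, an enzyme of ubiquinone synthesis, was 5.30 and 6.05 at 0 min, 5.49 and 5.05 at 30 min, 4.72 and 4.90 at 180 min and 4.89 and 5.13 at 300 min. Both 180 min arrays lay below the controls, which themselves lay far apart, and the change of -0.87 ± 0.21 at 180 min had an adjusted p of 0.106. Tfam, which packages mitochondrial DNA and activates its transcription, was 5.70 and 6.14 at 0 min, 5.76 and 5.45 at 30 min, 5.23 and 5.38 at 180 min and 5.40 and 5.62 at 300 min. Its change at 180 min was -0.61 ± 0.16 (confidence interval -0.95 to -0.27) with an adjusted p of 0.141. Gabpa, the DNA-binding subunit of the ETS factor GABP, was 5.83 and 5.93 at 0 min and 5.43 and 5.33 at 300 min, a change of -0.50 ± 0.14 with an adjusted p of 0.199. Its late minus early difference was -0.37 ± 0.10 with an adjusted p of 0.0631. Nrf1 itself was 5.43 and 5.16 at 0 min and 4.94 and 5.34 at 180 min, with overlapping arrays, and the coactivator gene Ppargc1a was 6.55 and 6.47 at 0 min and 6.20 and 6.47 at 180 min. The assembly factor gene Ttc19, whose protein acts on complex III, was 7.16 and 7.07 at 0 min, 6.99 and 7.08 at 30 min, 7.45 and 7.39 at 180 min and 7.39 and 7.41 at 300 min. All its late arrays were above its early ones, and the difference of 0.33 ± 0.08 had an adjusted p of 0.0505.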

How the data were processed

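Gene expression was measured in 8 samples of cultured mouse hippocampal neurons, 2 for each of 4 times in bicuculline, on Affymetrix Mouse Gene ST 1.0 arrays, with RNA prepared with a Qiagen kit and biotin label per the labels' protocols. The values deposited by the authors were log2 signals, 1 per transcript cluster and array. The base of the log was taken from the values. How background was corrected, probes were summarised and arrays were normalized, and with which software and build, is not given in the sources used here. What these steps did to dim signals is unknown, and background left in them would shrink their differences. Array medians were 4.84 to 4.88, and the values were used as deposited.

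Of 35399 rows, 21789 had 1 gene symbol in the platform annotation, 1621 several and 11989 none. Rows with 1 symbol were used, and for the 999 genes with several clusters the brightest over all arrays, giving 19938 genes. 16 of the 81 subunit genes had more than 1 cluster. All 81 matched RefSeq by gene number. A mean for each time was fitted to all 8 arrays with limma 3.58.1 in R 4.3.3 (lmFit and eBayes, prior SD 0.133, prior degrees of freedom 10.1, residual degrees of freedom 4). All tests were two-sided, p-values were adjusted by Benjamini-Hochberg over all genes, and the threshold was 0.05. SE and confidence intervals are the moderated ones. The number of arrays limits the precision. The procedure was tested on simulated data.

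A rule set 51 genes for naming from the comparisons with 0 min. It took, per complex, the 3 genes with the largest change in each direction, and all genes of complex II. Also taken were the tissue-restricted isoforms and genes whose clusters differed in direction (Ndufb11, Uqcrb, Uqcr11, Cox6c, Cox7a2l, Cox7b and Atp5pb). Not all of the 51 are described, some other subunit genes are, and values are printed for those the text turns on. Genes outside the complexes are named as checks or as stated. The members and lists were chosen with earlier results of these data known. Same-numbered replicates did not pair across times (correlations of deviations from -0.0941 to 0.0922). Alternatives were other scalings, a filter on dim genes, other choices of cluster and rows, another variance model, a replicate block, gene length and signal trends, and leaving out each array.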

Additional observations from a re-analysis of the deposited data

How the results depend on the processing

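The count of subunit genes past the threshold was 0 under every alternative run. The smallest adjusted p over these alternatives was 0.731 at 30 min, 0.247 at 180 min, 0.324 at 300 min, 0.172 for 180 against 30 min, 0.429 for 300 against 180 min, 0.121 for late against early arrays and 0.211 in the F test. With the replicate number as a block, 0 subunit genes passed, and the block changed no call of a subunit gene (smallest adjusted p 0.856, 0.304 and 0.532 at 30, 180 and 300 min). Leaving out 1 array at a time, the median change ran from -0.06 to -0.0 at 30 min, -0.079 to -0.021 at 180 min, -0.106 to 0.077 at 300 min, -0.073 to 0.004 for 180 against 30 min, -0.048 to 0.13 for 300 against 180 min and -0.057 to 0.013 for late against early. Of the 153 changes of named genes, 0 passed under any scaling, and 8 had the opposite sign after quantile normalization. With the mean of all clusters of a gene, 3 had the opposite sign. With 1 array left out, 106 of 1224 values had the opposite sign and 88 moved by more than 1 SE. The extremes of the median change at 300 min and for 300 against 180 min came from leaving out the second and the first 300 min array. Counts over all genes moved more: at 180 min from 66 to 102 with dim genes removed, 108 with a trended and robust variance, 1 with every row tested and 15 to 68 with 1 array left out, and at 300 min from 57 to 99, 91, 5 and 17 to 61. At 30 min they were 19 and, with 1 array left out, 12 to 21. For 180 against 30 min, 100 became 156, 9 and 17 to 93, and for 300 against 180 min 0 became up to 14. For late against early arrays 442 became 614 with dim genes removed and 612 with a trended and robust variance. It became 40 with every row tested and 154 to 372 with 1 array left out. In the F test 162 became 224, 255, 13 and 49 to 171, in the same order of settings. The causes of these moves in the counts were not tested, and some of the settings also differ in the number of rows or arrays. With 2 arrays per time, changes under about 0.59 were not called at any time against 0 min.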

Other observations

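6 transcript clusters that carry several symbols had no place among the 81 genes. Cox7c and Ndufb4 were measured by such clusters alone, while Ndufs5 also has a cluster of its own and is one of the 81. The 3 clusters shared by Cox7c and the pseudogene Gm12338 had fitted log2 changes of -0.15, -0.17 and -0.12 at 180 min against 0 min. The 2 clusters shared by Ndufb4 and Ndufb4b had -0.20 and -0.27, and the cluster shared by Ndufs5 and Ndufs5-ps had -0.07. None passed the test over all rows. All 6 were higher on the second than on the first array at 300 min: the brightest Cox7c cluster was 8.59 and 9.14 and the brighter Ndufb4 cluster 7.37 and 7.91.

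The second cluster named for Cox7b, a small complex IV subunit, was 7.09 and 6.89 at 0 min, 6.69 and 6.54 at 30 min, 6.70 and 6.70 at 180 min and 6.82 and 6.92 at 300 min. Its change of -0.38 at 30 min had a limma adjusted p of 0.974 over all rows, where the brighter cluster of the gene gave -0.10.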
